A study of Mus musculus with 6 samples.

Results

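The nuclear-encoded oxidative phosphorylation genes make and assemble the 5 enzyme complexes of the mitochondrial inner membrane. They were taken as every protein-coding gene whose symbol begins with Nduf, Uqcr, Cox4 to Cox8 or Atp5, or is Sdha, Sdhb, Sdhc or Sdhd. The rule found 89 of the 28293 genes with counts, and 87 of the 89 had enough reads to be tested. Of those 87, 77 encode structural subunits, 8 are the complex I assembly factors Ndufaf1 to Ndufaf8, and Cox7a2l and Atp5s have other roles. A few symbols that fit the rule, such as Cox6b2, Cox7b2, Cox8b and Cox8c, were not analysed here.

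Polyadenylated RNA was sequenced from a mouse dermal fibroblast line in 6 libraries, 3 from wild-type cells (WT1 to WT3) and 3 from cells knocked out for LAP2alpha (KO1 to KO3). Lamina-associated polypeptide 2 has several isoforms, and LAP2alpha is the one that lies free in the nucleoplasm with A-type lamins. All cells grew in DMEM with 10% fetal calf serum, and no other allele, treatment or time point is named. How the knockout was made, and whether the libraries came from separate cultures or clones, is not given in the sources used here, so the p-values reflect the spread among these 6 libraries and no more. A difference between lines cannot be told apart from the genotype, nor in bulk RNA can fewer cells of a kind be told apart from less RNA per cell.

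The libraries held 22159339 to 27281473 counts. Tmpo, which encodes every LAP2 isoform, stood at 263, 256 and 257 CPM (counts per library of 1e+06, with sizes normalized by TMM) in WT and at 132, 118 and 129 in KO. The groups did not overlap (log2 fold change of KO over WT -1.04, SE 0.055, edgeR adjusted p = 4.9e-08). The count covers all isoforms, and which of them the Tmpo reads remaining in KO came from was not tested. All 12 listed fibroblast markers reached 1 CPM in at least 1 group, and their summed level was 6249 to 6616 CPM in WT and 22390 to 23970 CPM in KO. A large part of that sum was Col1a2, at 1838 CPM in WT and 10670 in KO. Among these markers only Thy1 was lower in KO (390 CPM in WT and 231 in KO). Lum and Fap lay under 1 CPM in WT, at 0.070 and 0.35. The markers of other cell types summed to far less. Keratinocyte markers came to 4.97 to 7.09 CPM in WT and 3.65 to 5.14 in KO, striated muscle markers to 0.79 to 0.87 and 2.96 to 3.25, and adipocyte markers to 6.66 to 7.51 and 2.10 to 2.38. Leukocyte markers lay at 0.84 to 1.03 CPM in WT and 2.64 to 4.23 in KO, melanocyte and Schwann markers at 2.75 to 4.80 and 5.50 to 7.82, and endothelial markers at 1.32 to 1.51 and 0.23 to 0.86. The defining markers Ptprc of leukocytes, Mlana of melanocytes and Epcam and Dsp of keratinocytes had no read in KO, and Mb of muscle had none in WT. The part of these marker differences in the results was not tested.

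Oxidative phosphorylation passes electrons from NADH (complex I) and succinate (complex II) through coenzyme Q, complex III and cytochrome c to oxygen at complex IV. Complexes I, III and IV pump protons, and the returning protons drive ATP synthase, complex V. Complex II is built from nuclear genes alone, while the other complexes join nuclear-encoded subunits to a few encoded in mitochondrial DNA. Dedicated assembly factors insert cofactors and join modules and are absent from the finished enzyme. Fibroblasts in culture use both this pathway and glycolysis for ATP.

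More of these genes were lower than higher in KO, by small amounts. A gene is said to have risen or fallen when its adjusted p was under 0.05 in edgeR's quasi-likelihood test over all 15081 tested genes, with Benjamini-Hochberg adjustment. By that rule 44 of 87 fell, 16 rose and 27 were not called, or 69.0% called, against 75.1% of all tested genes. Among all genes the directions were balanced, with 37.7% higher and 37.5% lower, whereas 18.4% of the oxidative phosphorylation genes rose and 50.6% fell. Their median log2 fold change was -0.21, beside 0.01 for all tested genes, and their median absolute change was 0.30, beside 0.58. Changes under 1.2-fold made up 39 of the 87. Calls of at least 2-fold numbered 3 (3.45%), against 28.1% of all tested genes, and were Ndufaf4 and Ndufb8, lower, and Cox6a2, higher. A test against a minimum fold of 1.5 called 14 (4 higher and 10 lower; 16.1%), against 37.3% of all tested genes. All 3 KO values lay above all 3 WT values for 18 genes (38.7% of all tested genes) and below them for 45 (38% of all tested genes), or 72.4% in either direction against 76.7%. The oxidative phosphorylation genes had a median level of 88.1 CPM and a median exonic length of 1718 bases, beside 20.5 CPM and 3808 bases for all tested genes. They lay on 19 chromosomes, with at most 7 on any of them. All 89 together took 1.12%, 1.14% and 1.09% of the counts in WT and 0.995%, 1.03% and 1.04% in KO, so every KO library lay under every WT library.

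**Figure D1:**
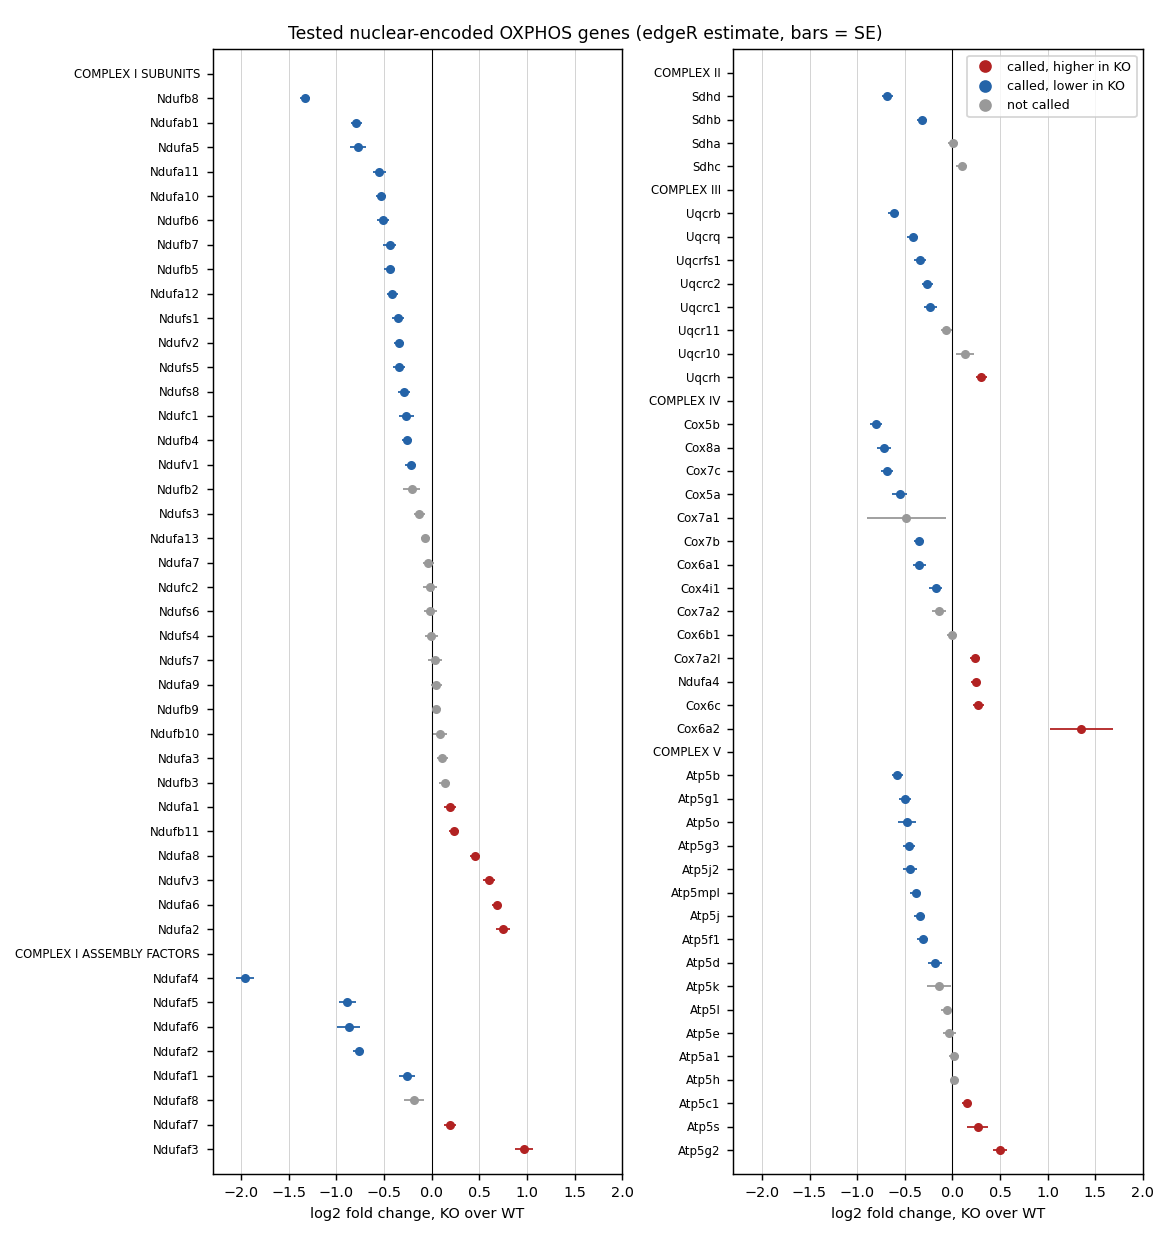
Log2 fold change of KO over WT (horizontal axis, points, with SE as bars) for 86 of the 87 tested genes, grouped by complex and sorted within it. Cox7a2l is drawn with complex IV and Atp5s with complex V. Most points lie between -1 and 1, and Ndufaf4 and Ndufb8 lie furthest to the left.

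Complex I, the NADH dehydrogenase, has the most nuclear subunits. Of 36 tested, 16 fell (44.4%, beside 37.5% of all tested genes) and 6 rose (16.7%, beside 37.7%), and the other 14 were not called. The median log2 fold change was -0.10. The largest decrease was in Ndufb8, an accessory subunit of the membrane arm. Ndufb8 stood at 130, 143 and 135 CPM in WT and at 52.8, 54.7 and 54.5 in KO. The groups were far apart, with WT 2.52-fold higher (log2 -1.33, SE 0.055, edgeR adjusted p = 8.8e-09). Ndufab1, the mitochondrial acyl carrier protein that also sits in complex I, went from 69.9, 73.7 and 70.2 CPM in WT to 40.9, 38.6 and 44.1 in KO (log2 -0.79). Ndufa5, a small subunit of the peripheral arm, went from 64.5, 56.1 and 52.3 CPM to 33.1, 36.2 and 31.96 (log2 -0.77). Neither gene's groups overlapped. Ndufa11, a membrane-arm subunit, was at 36.7, 43.0 and 41.2 CPM in WT and at 27.4, 27.8 and 27.5 in KO (log2 -0.55).

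Increases within the same complex were also clear of the replicate spread. Ndufa6, a peripheral-arm subunit of the LYR family that contacts the acyl carrier protein, stood at 63.6, 64.2 and 60.2 CPM in WT and at 99.2, 100.1 and 102 in KO. Every KO value lay above every WT value (log2 0.68, SE 0.051, edgeR adjusted p = 6.6e-07). Ndufa2, another peripheral-arm subunit, rose from 65.3, 59.0 and 56.9 CPM to 92.4, 105 and 107 (log2 0.75). Ndufv3, an accessory subunit of the NADH-binding module, rose from 49.4, 53.8 and 51.9 CPM to 73.9, 80.2 and 81.1 (log2 0.60). Ndufa8, a subunit of the intermembrane-space face, rose from 59.9, 60.4 and 62.4 CPM to 79.9, 87.1 and 83.0 (log2 0.45).

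The 7 nuclear-encoded core subunits carry the flavin, the iron-sulfur clusters and the quinone site. Of them 4 fell (57.1%, beside 37.5% of all tested genes) and none rose, and their median was -0.22. The 75 kDa subunit Ndufs1, which holds iron-sulfur clusters, fell from 81.0, 93.4 and 83.3 CPM in WT to 66.2, 68.7 and 66.1 in KO (log2 -0.36). The flavin-binding Ndufv1 fell from 102, 107 and 103 CPM to 83.5, 89.2 and 96.1 (log2 -0.22), and its partner Ndufv2 from 177, 169 and 160 to 138, 132 and 129 (log2 -0.34). Ndufs8, which carries the clusters near the membrane, fell from 67.6, 72.5 and 64.9 CPM to 52.2, 57.6 and 58.0 (log2 -0.29). Ndufs7, which carries the cluster nearest the quinone, and Ndufs3 did not pass the test. Ndufs7 had a log2 fold change of 0.03 and Ndufs3 of -0.13, with edgeR adjusted p of 0.66 and 0.052. Ndufs3 passed the edgeR test when WT1, WT3 or KO3 was left out (edgeR adjusted p = 0.033, 0.047 and 0.032). Among the 9 accessory subunits of the peripheral arm 3 rose and 2 fell (median 0.00), and among the 19 of the membrane arm 3 rose and 9 fell (median -0.21). In the peripheral arm 33.3% rose and 22.2% fell, and in the membrane arm 15.8% and 47.4%. Of all tested genes 37.7% rose and 37.5% fell.

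**Figure D2:**
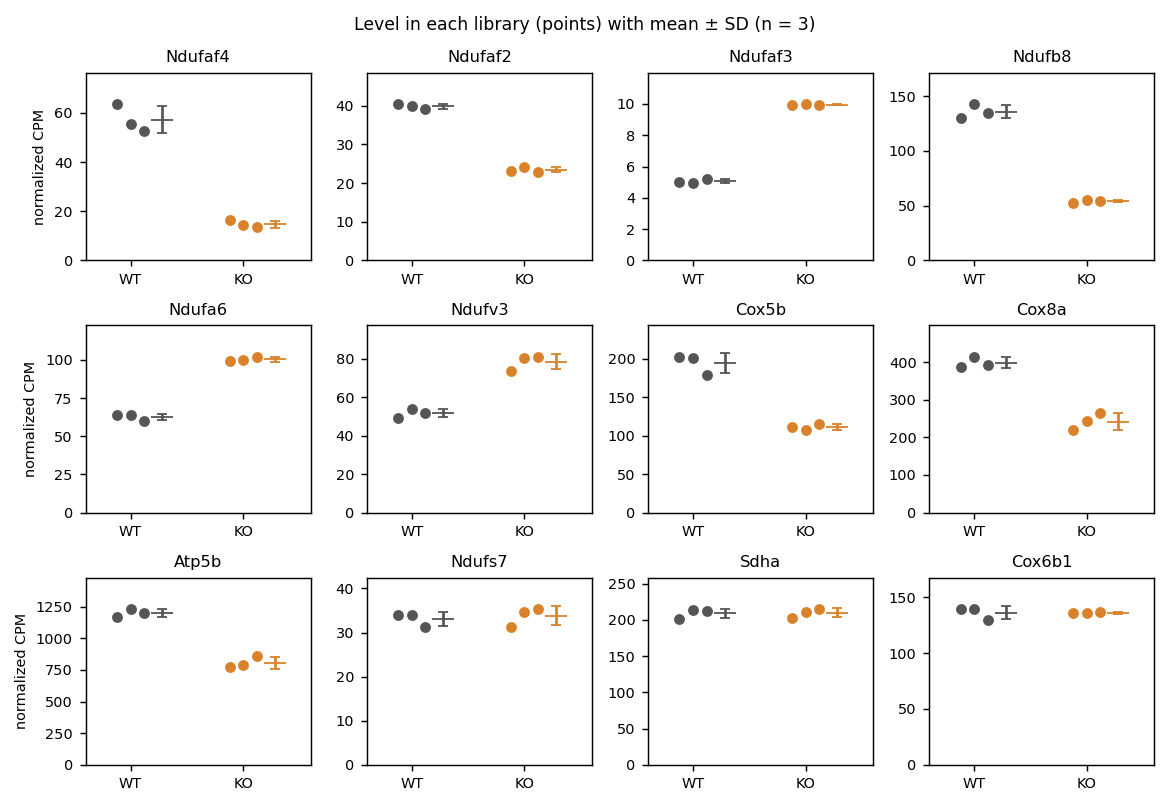
Level of 12 genes in each library (vertical axes, TMM-normalized CPM from 0; points, 3 WT in grey and 3 KO in orange), with the mean and SD beside them. Ndufaf4 and Ndufb8 show the widest gaps, Ndufaf3, Ndufa6 and Ndufv3 are higher in KO, and the WT and KO points of Ndufs7, Sdha and Cox6b1 overlap.

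Complex II, succinate dehydrogenase, has 4 subunits, of which 2 fell (50%, beside 37.5% of all tested genes) and 2 were not called (median -0.16). The calls fell on 1 catalytic and 1 anchor subunit. Sdhd, a heme-binding membrane anchor, fell from 202, 198 and 187 CPM in WT to 115, 128 and 122 in KO, a 1.61-fold difference without overlap (log2 -0.69, SE 0.057, edgeR adjusted p = 1.5e-06). Sdhb, the iron-sulfur subunit, fell from 76.4, 77.3 and 73.0 CPM to 60.9, 60.5 and 60.5 (log2 -0.32). The flavoprotein Sdha, the catalytic subunit, was at 201, 213 and 212 CPM in WT and at 203, 210 and 215 in KO. The groups overlapped (log2 0.0061, SE 0.050, edgeR adjusted p = 0.92). The other anchor, Sdhc, was at 82.6, 77.7 and 77.3 CPM in WT and at 84.5, 89.0 and 80.3 in KO (log2 0.10, edgeR adjusted p = 0.15), and it was called higher when libraries were scaled by their totals alone (log2 0.17, edgeR adjusted p = 0.020).

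In complex III, which passes electrons from coenzyme Q to cytochrome c, 5 of 8 subunits fell, 1 rose and 2 were not called (median -0.25). Thus 62.5% fell and 12.5% rose, beside 37.5% and 37.7% of all tested genes. The electron-carrying Rieske iron-sulfur protein Uqcrfs1 fell from 102, 108 and 106 CPM in WT to 81.5, 78.8 and 89.8 in KO (log2 -0.34). The core proteins Uqcrc1 and Uqcrc2, which form the matrix side of the enzyme, fell by 0.23 and 0.26 on the log2 scale, and the call of Uqcrc1 was lost without WT2 (edgeR adjusted p = 0.052). The small subunits moved both ways. Uqcrb, which lies near the quinone site, fell from 152, 140 and 140 CPM to 97.9, 94.2 and 90.0 (log2 -0.61, SE 0.057, edgeR adjusted p = 3.5e-06), and Uqcrq fell from 110, 117 and 109 to 78.5, 86.5 and 86.5 (log2 -0.42). Uqcrh, the hinge protein at the cytochrome c1 side, rose from 115, 108 and 101 CPM to 131, 138 and 131 (log2 0.30). Cyc1, the cytochrome c1 subunit that the name rule does not take in, fell from 136 ± 5.64 to 86.6 ± 8.51 CPM (mean ± SD, n = 3; log2 -0.65).

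Complex IV, cytochrome c oxidase, had 13 tested subunits, of which 7 fell, 3 rose and 3 were not called (median -0.35). Lower subunits made up 53.85% and higher ones 23.1%, beside 37.5% and 37.7% of all tested genes. The largest decrease at over 5 CPM was in Cox5b, a zinc-binding subunit on the matrix side, which stood at 202, 201 and 179 CPM in WT and at 112, 107 and 115 in KO. WT was 1.75-fold higher with no overlap (log2 -0.80, SE 0.062, edgeR adjusted p = 7.6e-07). Cox5a, its neighbour on the matrix face, fell from 123, 136 and 134 CPM to 83.2, 85.4 and 100.2 (log2 -0.55). The small membrane-spanning subunits Cox8a and Cox7c fell too. Cox8a went from 388, 414 and 392 CPM to 219, 243 and 264 (log2 -0.72), and Cox7c from 186, 187 and 173 to 119, 106 and 115 (log2 -0.68). Cox4i1, the largest nuclear-encoded subunit, was called lower by a small margin (log2 -0.18, edgeR adjusted p = 0.036), and its values overlapped, at 470, 469 and 439 CPM in WT and 376, 397 and 447 in KO. This call was lost without WT2, KO1 or KO2 (edgeR adjusted p = 0.098, 0.14 and 0.11).

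Cox6c rose from 182, 175 and 160 CPM to 214, 206 and 206 (log2 0.27), and Ndufa4, a complex IV subunit despite its name, rose from 232, 225 and 223 to 268, 268 and 269 (log2 0.25). Cox7a2l, a factor that joins complexes III and IV in supercomplexes, also rose, from 151, 156 and 150 CPM to 179, 185 and 174 (log2 0.24). These 3 increases were small, but the groups were separate in each. Of the forms made in most tissues, Cox6a1 and Cox7b fell (log2 -0.35 each), and Cox7a2 was not called (log2 -0.14, edgeR adjusted p = 0.10; 0.020 without KO2). Cox6b1 was the least changed of all tested members, at 139, 140 and 130 CPM in WT and 136, 136 and 137 in KO (log2 -0.0013, edgeR adjusted p = 0.98). The isoforms known from muscle, lung or hypoxic cells were close to absent in both groups. Cox6a2, the heart and skeletal muscle partner of Cox6a1, had 15, 8 and 7 counts in WT and 31, 33 and 25 in KO. The increase passed the test (log2 1.36, SE 0.34, edgeR adjusted p = 0.0039) and left KO near 1.09 CPM. The summed striated muscle markers were also higher in KO (0.79 to 0.87 CPM in WT and 2.96 to 3.25 in KO). Only 3 of the 6 listed muscle markers had counts, and most of that rise was Des, at 0.62 CPM in WT and 2.85 in KO. Acta1 was at 0.215 and 0.195 CPM, and Mb had 0 counts in WT and 3 in KO. The muscle isoform Cox7a1 had 32 counts in WT and 26 in KO over 3 libraries and was not called (log2 -0.49, edgeR adjusted p = 0.31). Cox4i2, the oxygen-responsive partner of Cox4i1, had 1 count in total over the 6 libraries, and Ndufa4l2, the hypoxia-induced relative of Ndufa4, had 3 counts in WT and 17 in KO. Neither had enough reads to be tested.

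Complex V, ATP synthase, joins a soluble catalytic F1 head to a membrane-embedded ring of c subunits through a central and a peripheral stalk. Of 16 tested subunits 9 fell (56.25%, beside 37.5% of all tested genes), 2 rose (12.5%, beside 37.7%) and 5 were not called (median -0.25). The catalytic hexamer of the head is made of alpha and beta subunits. The beta subunit Atp5b fell from 1165, 1233 and 1199 CPM in WT to 769, 786 and 856 in KO, a 1.49-fold difference without overlap (log2 -0.58, SE 0.056, edgeR adjusted p = 5.0e-06). Atp5a1, the alpha subunit, was at 700.2, 740 and 714 CPM in WT and at 694, 725 and 755 in KO (log2 0.01, edgeR adjusted p = 0.82), and its groups overlapped. The difference between the changes of Atp5a1 and Atp5b was not tested. The gamma subunit Atp5c1, the rotating shaft, rose by a small amount (log2 0.15), from 258, 260 and 246 CPM to 292, 282 and 274, a call lost without WT1, WT3 or KO2 (edgeR adjusted p = 0.052, 0.14 and 0.052). In the peripheral stalk, which holds the head still, 3 of 4 subunits fell, among them Atp5o, from 102, 124 and 110 CPM to 74.4, 75.2 and 91.6 (log2 -0.48). Atp5s, known as coupling factor B, was at 5.32, 6.05 and 6.17 CPM in WT and at 7.46, 7.01 and 6.63 in KO. It was called higher by a small margin (log2 0.26, edgeR adjusted p = 0.045). That call held in 1 of the 6 runs that left out a library, the one without KO3.

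The 3 genes for the c subunit changed in opposite directions. Atp5g1, Atp5g2 and Atp5g3 encode the same mature ring protein behind different import sequences, so their transcripts can be read as shares of 1 product. Atp5g2 rose from 204, 191 and 176 CPM in WT to 246, 271 and 288 in KO (log2 0.50, SE 0.073, edgeR adjusted p = 1.1e-04). Atp5g1 fell from 143, 144 and 130 CPM to 91.9, 101 and 102 (log2 -0.50), and Atp5g3 from 360, 324 and 305 to 232, 247 and 243 (log2 -0.45). The KO and WT values of each gene were separate. Of all reads counted on the 3 genes, Atp5g2 took 28.9%, 29.0% and 28.8% in WT and 43.2%, 43.7% and 45.5% in KO. Atp5g1 went from 21.1 ± 0.811% to 16.2 ± 0.141% and Atp5g3 from 49.99 ± 0.853% to 39.7 ± 1.18% (mean ± SD, n = 3). These are shares of reads, not corrected for transcript length. Had multi-mapping reads between the 3 related genes been split by the counting program, the shares would move, and how it treated them is not given in the sources used here.

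**Figure D3:**
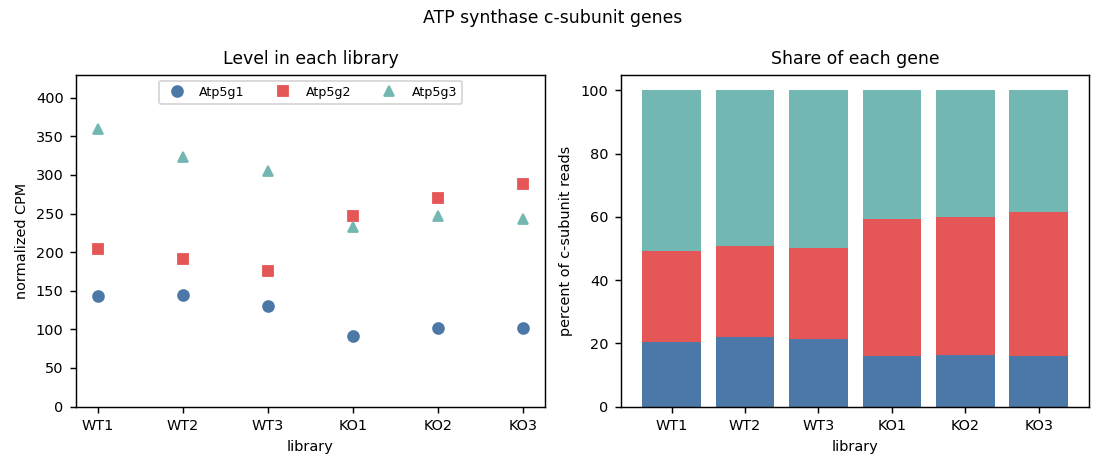
Left, level of Atp5g1, Atp5g2 and Atp5g3 in each of the 6 libraries (TMM-normalized CPM). Right, percent of the reads on these genes that each took, stacked to the full height. Atp5g2 grows from about 29% in WT to 43.2% or more in KO, and the other two shrink.

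The 130 bases just upstream of the RefSeq starts of the 3 c-subunit genes are shown because these genes make 1 product and moved in opposite directions. They are from RefSeq on GRCm38.p6, 5′ to 3′ on the gene's own strand, which is minus for all 3, at chr11:96075632-96075761 for Atp5g1, chr15:102671048-102671177 for Atp5g2 and chr2:73911327-73911456 for Atp5g3. Capitals mark a match to the NRF1 motif (the 10 capital letters in Atp5g2, which are their own reverse complement) or to the ERR motif TCAAGGTCA, read here on the opposite strand, and no ETS (CCGGAAG) or YY1 (AAGATGGC) match lies in these stretches.
Atp5g1: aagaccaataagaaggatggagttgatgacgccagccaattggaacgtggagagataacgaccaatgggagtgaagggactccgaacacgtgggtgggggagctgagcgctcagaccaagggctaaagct
Atp5g2: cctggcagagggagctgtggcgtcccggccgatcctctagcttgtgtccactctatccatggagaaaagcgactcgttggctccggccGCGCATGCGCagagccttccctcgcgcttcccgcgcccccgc
Atp5g3: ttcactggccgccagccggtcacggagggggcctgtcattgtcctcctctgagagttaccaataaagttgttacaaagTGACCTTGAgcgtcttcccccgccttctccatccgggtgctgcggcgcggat
Atp5g2, which rose, holds the NRF1 letters 42 bases before its RefSeq start, Atp5g3 the ERR letters, and Atp5g1 neither. In GENCODE M21, used here for gene names, Atp5g2 begins further upstream, at chr15:102672352, so its whole stretch lies inside that gene. Atp5g1 begins there at chr11:96075670, within its stretch, and Atp5g3 at chr2:73911326, just outside its own. A match is a run of letters in this window and says nothing of binding.

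NRF1, GABP (an ETS factor), YY1 and the estrogen-related receptors (ERR) are known regulators of respiratory genes, so their motifs were searched on both strands of the RefSeq windows from 250 bases before to 50 after each start. Of the 89 genes 73 had such a window. The NRF1 letters were in 7 of the 73 (9.59%), beside 0.971% of all 32851 windows and 1.47% of protein-coding genes. The ETS letters were in 18 (24.7%, beside 8.86% of all windows and 12.9% of protein-coding genes), the YY1 letters in 11 (15.1%, beside 2.75% and 3.57%) and the ERR letters in 2, Atp5g3 and Sdhd (2.74%, beside 0.423% and 0.377%). The SP1 letters GGGCGG, which can also occur within other GC-rich motifs, were in 45.2%, beside 35.7% of all windows and 49.2% of protein-coding genes. Of the 11 YY1 matches 9 began at or after the start. Of the 7 genes with the NRF1 letters 5 fell (Ndufaf4, Ndufaf5, Ndufa11, Cox6a1 and Uqcrc1), 1 rose (Atp5g2) and 1 was not called (Atp5k), and of all 73 with a window 37 fell, 13 rose and 23 were not called. Of the 18 with the ETS letters 9 fell and 1 rose, and of the 11 with the YY1 letters 5 fell and 0 rose. Of the 33 with the SP1 letters 18 fell and 9 rose, and both ERR genes fell. Stretches of 60 bases around an NRF1 match are shown to give its context in members of complexes I, IV and V, at chr4:24897953-24898012 (plus strand) for Ndufaf4, chr17:56717677-56717736 (plus) for Ndufa11, chr5:115349079-115349138 (minus) for Cox6a1 and chr5:108434415-108434474 (minus) for Atp5k. Capitals mark the match.
Ndufaf4: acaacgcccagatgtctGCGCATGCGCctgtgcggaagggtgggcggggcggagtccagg
Ndufa11: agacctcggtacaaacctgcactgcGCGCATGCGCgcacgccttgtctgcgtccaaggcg
Cox6a1: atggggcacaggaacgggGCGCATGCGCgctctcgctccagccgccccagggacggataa
Atp5k: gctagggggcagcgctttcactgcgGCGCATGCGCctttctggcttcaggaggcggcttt
The same 10 letters stood before the RefSeq starts of genes with log2 fold changes of -1.96 (Ndufaf4), -0.55 (Ndufa11), -0.35 (Cox6a1) and -0.14 (Atp5k, edgeR adjusted p = 0.33). In GENCODE M21 Atp5k begins at chr5:108434448, within its stretch.

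Of the 8 complex I assembly factors of the Ndufaf series 5 fell, 2 rose and 1 was not called. By share, 62.5% fell and 25% rose, beside 37.5% and 37.7% of all tested genes. Their median was -0.51 and their median absolute change 0.82, beside -0.21 and 0.30 for the 77 structural subunits. The difference between the classes was described and not tested. Ndufaf4, an early assembly factor, had the largest decrease of all the oxidative phosphorylation genes, from 63.4, 55.6 and 52.8 CPM in WT to 16.2, 14.3 and 13.5 in KO. WT was 3.90-fold higher (log2 -1.96, SE 0.091, edgeR adjusted p = 2.0e-08). Ndufaf3, which works in one complex with Ndufaf4, moved the other way, from 5.04, 4.97 and 5.21 CPM to 9.95, 9.97 and 9.90 (1.96-fold; log2 0.97, SE 0.091, edgeR adjusted p = 3.7e-06). Both genes' values were tight within groups and separate between them.

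Ndufaf5, which modifies the core subunit Ndufs7, fell from 19.6, 19.9 and 19.6 CPM to 11.6, 9.38 and 11.05 (log2 -0.88), and Ndufaf6, a factor related to phytoene synthases, from 7.88, 8.19 and 8.36 to 4.78, 3.80 and 4.76 (log2 -0.87). Ndufaf2, a late factor related to Ndufa12, fell from 40.3, 40.0 and 39.2 CPM to 23.2, 24.2 and 22.9 (log2 -0.76). Ndufaf7, a methyltransferase, was higher by a small amount, at 19.4, 19.2 and 19.4 CPM in WT and 21.7, 22.1 and 22.4 in KO (log2 0.19, edgeR adjusted p = 0.018), and that call held in 1 of the 6 runs that left out a library, the one without KO1. Exons of a gene on the opposite strand cover 65.7% of the exonic length of Ndufaf2. They cover over 10% of the exonic length in 11 of the 87 tested members, beside 1680 of all 15081 tested genes. Of these 11 members 7 fell and 3 rose. Whether the counting used strand is not given in the sources used here, so reads of such pairs may be joined. The partners of Ndufaf2 and Cox6a2 have no value here. In WT and KO, Rbm10 beside Ndufb11 (higher) was at 93.0 and 65.6 CPM, Gabpa beside Atp5j (lower) at 72.2 and 54.8, Mrpl47 beside Ndufb5 (lower) at 53.8 and 23.9, and Tmco6 beside Ndufa2 (higher) at 5.45 and 10.8. Of these 4 partners, 3 thus had group means that differed in the same direction as their member. The other partners with a value were at 2.73 CPM or less, and the part of partner reads in these results was not tested.

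Assembly factors with other names were also more often lower than higher. Tested genes on lists for the 5 complexes numbered 44, leaving out the subunit Cyc1 and the ATP synthase inhibitor Atpif1. Of these 44, 30 fell (68.2%, beside 37.5% of all tested genes) and 7 rose (15.9%, beside 37.7%), with a median of -0.43. For complex I 9 of 10 fell and none rose (median -0.70), including Acad9 and Tmem126a, both needed to build the membrane arm, by 0.88 and 0.78 on the log2 scale, and Foxred1 by 0.81. With the Ndufaf series added, 14 of 18 complex I factors fell and 2 rose. The complex II flavin and iron-sulfur factors split, with Sdhaf1 and Sdhaf2 lower (log2 -0.99 and -0.97) and Sdhaf3 higher (log2 0.90). In complex III Uqcc1 and Uqcc2, which serve cytochrome b synthesis, fell (log2 -0.59 and -0.27), and among all 6 factors of that complex 3 fell and 2 rose. Of 20 complex IV factors 12 fell and 4 rose (median -0.41). Surf1, needed for early assembly of complex IV, rose from 23.0 ± 1.15 to 47.0 ± 2.15 CPM (log2 1.03, edgeR adjusted p = 1.6e-07), while Cox15, a heme A synthesis enzyme, fell from 36.4 ± 1.48 to 18.6 ± 1.24 CPM (log2 -0.97) and Lrpprc, which stabilizes mitochondrial mRNA, from 176 ± 1.13 to 97.6 ± 5.72 CPM (log2 -0.85). All 4 complex V factors fell, among them Tmem70 (log2 -0.86), Fmc1 (log2 -0.89) and Atpaf2 (log2 -0.64), and so did Atpif1 (log2 -0.36).

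**Figure D4:**
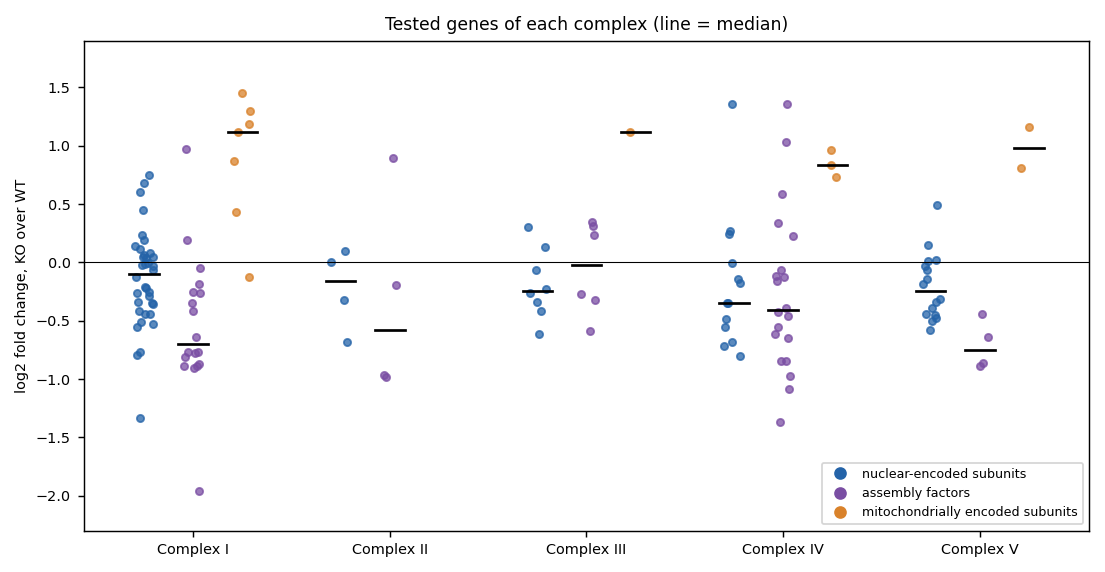
Log2 fold change of KO over WT (vertical axis) for each tested gene of complexes I to V, as nuclear-encoded subunits, assembly factors of any name and subunits encoded in mitochondrial DNA; black lines are medians. Nuclear-encoded medians lie between -0.35 and -0.10, assembly factor medians between -0.75 and -0.02, and the mitochondrially encoded medians between 0.83 and 1.12.

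The 13 subunits encoded in mitochondrial DNA differed from the nuclear ones of the same complexes. Of these 12 rose (92.3%, beside 37.7% of all tested genes), and mt-Nd3 was not called (log2 -0.12). Medians were 1.12 in complex I, 1.11 in complex III, 0.83 in complex IV and 0.98 in complex V, beside -0.10, -0.25, -0.35 and -0.25 for the nuclear subunits. Their share of all counts was 2.28%, 1.87% and 1.87% in WT and 4.07%, 3.84% and 3.50% in KO. mt-Nd5 rose by 1.45, mt-Nd4l by 1.30 and mt-Cytb by 1.11 on the log2 scale. Reads of mitochondrial transcripts in a poly(A) library also move with poly(A) capture and RNA quality, whose part in this result was not tested. Of 14 genes that copy and transcribe mitochondrial DNA 8 fell (57.1%, beside 37.5% of all tested genes) and 3 rose (21.4%, beside 37.7%), with a median of -0.29. The helicase Twnk, the DNA-binding protein Ssbp1 and the transcription regulator Mterf3 fell by 1.07, 0.94 and 0.97 on the log2 scale.

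Among 13 tested regulators of respiratory genes 8 fell, 2 rose and 3 were not called (median -0.29). That is 61.5% lower and 15.4% higher, beside 37.5% and 37.7% of all tested genes. Pprc1, the growth-responsive member of the PGC-1 coactivator family, fell from 124, 128 and 127 CPM in WT to 33.8, 35.4 and 34.1 in KO (3.67-fold; log2 -1.88, SE 0.051, edgeR adjusted p = 7.9e-10). Nrf1 itself fell from 39.5 ± 1.94 to 24.4 ± 2.37 CPM (log2 -0.69). Cytochrome c and coenzyme Q carry electrons between the complexes. Of 15 genes that encode or make them 10 fell (66.7%, beside 37.5% of all tested genes) and 4 rose (26.7%, beside 37.7%). Their median was -0.71. Cycs, somatic cytochrome c, fell from 217, 200.4 and 201 CPM to 70.7, 65.8 and 60.8 (3.13-fold; log2 -1.65, SE 0.066, edgeR adjusted p = 7.8e-09). Pdss1, which starts the coenzyme Q tail, fell from 15.8 ± 0.639 to 5.84 ± 0.324 CPM (log2 -1.44). Coq8a, an atypical kinase of coenzyme Q synthesis, had 16 counts over the 3 WT libraries and 353 over the 3 KO libraries (log2 4.24, SE 0.22, edgeR adjusted p = 3.9e-08).

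Of 23 tested genes of the TCA cycle and pyruvate dehydrogenase, which supply NADH and succinate, 12 fell, 3 rose and 8 were not called (median -0.22). Idh3a, the catalytic subunit of NAD-dependent isocitrate dehydrogenase, fell from 196, 191 and 189 CPM to 77.3, 68.0 and 73.3 (2.63-fold; log2 -1.40), and malate dehydrogenase Mdh2 from 440.4 ± 18.7 to 240.8 ± 13.4 CPM (log2 -0.87). Pdk2, a kinase that inhibits pyruvate dehydrogenase, rose from 1.12, 2.21 and 1.66 CPM to 13.3, 13.2 and 14.9 (8.18-fold; log2 3.03, SE 0.17, edgeR adjusted p = 8.3e-08). In all 3 the KO and WT values were separate.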

How the data were processed

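Gene-level read counts of 6 poly(A) RNA-seq libraries were used as the authors deposited them. Per the labels' protocols, RNA was purified with an RNeasy kit and made into libraries with NEBNext poly(A) selection and a directional kit. Per the submitters' processing notes, reads were aligned with STAR 2.7.10b to GRCm38. The program, annotation, strand setting and multi-mapping rule behind the counts were not named in those sources. Library totals are 22159339, 26553616 and 24659885 counts in WT and 27281473, 26519098 and 25768678 in KO.

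Identifiers were matched to GENCODE M21: 28230 of 28293 were found, and the others held 0.0189% of the counts. The test of KO against WT used edgeR 4.0.16 (R 4.3.3; TMM, filterByExpr, quasi-likelihood test, Benjamini-Hochberg over 15081 genes; called at an adjusted p under 0.05) without a replicate block. CPM values use the TMM-scaled library size, and errors are SD over 3 libraries. Fits were tested on simulated data. The numbers of same-numbered libraries were not treated as pairs.

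Genes of each complex were named by a rule: Tmpo; up to 4 called increases and 4 decreases with at least 5 CPM in each complex and among assembly factors; core subunits; tissue isoforms; and up to 3 genes with the smallest p in each pathway list. Some genes the rule names are not reported here. Members, lists and motifs were chosen with earlier results of these data known. Alternatives were DESeq2 1.42.0 size factors and its Wald test, upper-quartile and total scaling, leaving out mitochondrially encoded genes, no low-count filter, a filter of 1 CPM in 3 libraries, limma-voom (limma 3.58.1), a replicate block, an exonic length offset, a fold of 1.5 and leaving out each library. Python 3.11.15 with matplotlib 3.10.9 drew the figures.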

Additional observations from a re-analysis of the deposited data

How the results depend on the processing

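Among the tested genes of the set (87, or 85 to 89 under other filters and DESeq2), 14 to 22 were higher and 39 to 48 lower in KO under other scalings, filters, tests and offsets, and 12 to 16 were higher and 41 to 47 lower with 1 library left out. Only a minimum fold of 1.5 moved these counts by more than 1.5 times, to 4 higher and 10 lower, and the calls over all genes to 5621; it asks for a larger change. None of the 60 calls changed sign in a setting that tested it, and the median log2 fold change of the set ran from -0.13 (totals alone) to -0.26. With the replicate number as a block, 16 were higher and 48 lower. Over all tested genes, same-numbered libraries deviated together weakly or not at all (correlations 0.147, -0.115 and 0.159). Over the tested genes of the set these correlations were 0.18, -0.55 and -0.10, and the largest of any was 0.67, for WT2 with KO3. The numbers were therefore not read as pairs. Sign changes were in genes near zero, whose cause was not tested. Cox6b1 went to 0.0021 with DESeq2 size factors, 0.062 with upper-quartile scaling, 0.077 with totals, 0.0067 without mitochondrially encoded genes, 0.0095 with a 1 CPM filter and 0.13 with the length offset, where it was called (edgeR adjusted p = 0.047). Ndufa13 went to 0.0097 with totals and 0.026 with the offset, and mt-Nd3 to 0.057 with the offset. With no filter Sdha went to -0.014 and Atp5a1 to -0.0064. With 1 library left out the range was -0.057 to 0.020 for Cox6b1, -0.043 to 0.036 for Sdha, -0.029 to 0.051 for Atp5a1, -0.027 to 0.095 for Ndufs7, -0.27 to 0.017 for Atp5k and -0.26 to 0.0080 for mt-Nd3. Depth limited what could be said of the rare isoforms.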

Other observations

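Genes that mark mitochondrial mass or exchange metabolites across the inner and outer membranes were mostly lower in KO: 13 of 14 tested fell and none rose. The median log2 fold change was -0.57, and of all tested genes 37.5% fell and 37.7% rose. Slc25a5, an ADP/ATP carrier that exports the ATP made by complex V, fell from 1057, 1035 and 1011 CPM in WT to 309, 305 and 312 in KO (3.35-fold; log2 -1.74, SE 0.048, edgeR adjusted p = 7.9e-10). Hspd1, the matrix chaperonin that folds imported proteins, fell from 1366, 1383 and 1389 CPM to 501, 497 and 489 (log2 -1.48), and Timm23, the channel of the inner-membrane import machinery, fell from 185 ± 4.84 to 81.1 ± 3.67 CPM (mean ± SD, n = 3; log2 -1.19). The values within each group of these 3 genes lay close together and were separate between groups.

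Of 10 tested genes that join complexes in supercomplexes or shape the cristae 7 fell, 2 rose and 1 was not called, with a median of -0.43. That is 70% lower and 20% higher, beside 37.5% and 37.7% of all tested genes. Higd1a, a hypoxia-induced protein that associates with complex IV, fell from 77.6 ± 10.1 to 32.4 ± 1.64 CPM (log2 -1.26, edgeR adjusted p = 4.4e-07). The cristae junction (MICOS) subunits Chchd3 and Minos1 fell by 0.66 and 0.60 on the log2 scale, to 90.6 ± 1.00 and 47.3 ± 1.18 CPM.

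Several rows of the count files are annotated as processed pseudogenes of oxidative phosphorylation genes. Atp5l2-ps held 37.2 CPM in WT and 35.9 in KO, and Ndufb4c, a relative of Ndufb4, held 32.7 and 31.8 CPM. Whether these reads came from the parent transcripts or from transcribed pseudogenes was not tested. Ndufb1-ps, a non-coding entry in GENCODE M21, held 81.3 CPM in WT and 62.7 in KO and is outside the rule.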
